A study of Mus musculus with 9 samples.

Results

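H3K27ac, the acetylation of histone H3 at lysine 27, was profiled by CUT&Tag in LSK cells from cKO mice and from fl mice, with 1 library per genotype. LSK cells are bone marrow cells without mature lineage markers that carry Sca-1 and Kit, the gate that holds haematopoietic stem cells and early multipotent progenitors. The cKO mice were Dekfl/fl with Tie2-Cre, a Cre driven by a promoter that is active in endothelial cells and in blood cells that descend from them, so Dek is deleted in both. The fl mice were Dekfl/fl with no Cre named in their labels, and both genotypes carry the floxed Dek alleles. All mice were 12 weeks old, the strain is given as C57BL/6, and about 50000 LSK cells went into a library. Whether cells of several mice were pooled is not given in the sources used here. On chromosomes 1 to 19 the cKO list held 15422 peaks and the fl list 9774, together 25196 of the 63440 peaks in the 9 lists of the series. Peaks that overlapped by 1 bp or more were joined into 16611 regions, each of the class cKO only, fl only or both. The other lists, used as independent readouts of the same places, were H3K4me3 in LSK cells of cKO and fl mice, H3K9ac in haematopoietic stem cells (HSC) of cKO and fl mice, and DEK in fl HSC.

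Histone acetylation at this lysine is laid down by the CBP and p300 acetyltransferases at active promoters and enhancers, and is removed by histone deacetylases. At promoters it usually stands beside H3K4me3, which marks the start sites of active and poised genes, above all those rich in CpG dinucleotides. Away from promoters it marks active enhancers, which in blood stem cells are often bound by RUNX1, GATA2, TAL1 and ETS factors such as ERG and FLI1. DEK is an abundant chromatin protein that binds DNA and histones and takes part in histone chaperone activity. CUT&Tag tethers a transposase to the antibody, so that DNA is cut and tagged where the mark lies.

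The promoter sequences of 7 genes show the kinds of start at which the lists differed, 3 with a peak in the cKO list only and H3K4me3 in both genotypes, 2 with a peak in the fl list only, and 2 with a cKO-only peak and no H3K4me3 peak. Each is a RefSeq sequence of the build GRCm38.p6 (the mm10 coordinates), written along the direction of transcription, and begins 250 bases before an annotated start and ends 50 bases after it. Capitals mark matches to short motifs searched on both strands, which may overlap: CCGGAA (ETS, in 19.5% of all 16456 promoters of the table), TGTGGT (RUNX, 14.9%), AGATAA (factors such as GATA2, 9.87%), GGGCGG (SP and KLF, 47.3%), GCGCATGC (NRF1, 3.65%), AAGATGGC (YY1, 3.23%), CCAAT (NFY, 38.9%), CACGTG (E-box, 7.96%), TGACGTCA (CRE, 2.42%), TGANTCA (AP-1, 7.17%) and TATAAA (the core promoter TATA box, 13.5%). A match is a description of the letters and not a bound site. The cKO-only promoters were Sec22c (chr9:121704980-121705279, minus strand), a vesicle trafficking gene, Egln2 (chr7:27166753-27167052, minus strand), an oxygen-sensing prolyl hydroxylase, and Kat14 (chr2:144368782-144369081, plus strand), a histone acetyltransferase of the ATAC complex. They hold 23, 29 and 36 CpG dinucleotides.
Sec22c: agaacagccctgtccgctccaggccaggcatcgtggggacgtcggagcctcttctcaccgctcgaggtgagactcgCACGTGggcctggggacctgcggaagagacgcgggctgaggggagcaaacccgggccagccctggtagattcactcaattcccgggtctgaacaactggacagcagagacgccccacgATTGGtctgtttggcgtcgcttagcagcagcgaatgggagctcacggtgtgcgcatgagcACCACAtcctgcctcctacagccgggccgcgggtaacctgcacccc
Egln2: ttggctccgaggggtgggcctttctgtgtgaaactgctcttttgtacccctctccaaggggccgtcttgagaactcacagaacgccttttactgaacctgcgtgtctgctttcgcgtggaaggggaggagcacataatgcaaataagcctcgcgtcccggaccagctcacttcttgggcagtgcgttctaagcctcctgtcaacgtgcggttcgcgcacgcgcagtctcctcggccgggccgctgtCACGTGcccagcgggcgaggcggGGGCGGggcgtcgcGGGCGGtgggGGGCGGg
Kat14: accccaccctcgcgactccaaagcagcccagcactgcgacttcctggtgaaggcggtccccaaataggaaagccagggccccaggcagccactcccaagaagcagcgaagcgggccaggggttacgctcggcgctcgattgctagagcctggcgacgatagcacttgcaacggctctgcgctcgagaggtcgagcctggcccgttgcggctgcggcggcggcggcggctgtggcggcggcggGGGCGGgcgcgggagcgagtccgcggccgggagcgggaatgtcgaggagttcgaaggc

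The fl-only promoters were Strada (chr11:106193554-106193853, minus strand), a pseudokinase that activates LKB1, and Ddit3 (chr10:127290543-127290842, plus strand), the stress-response factor CHOP. They hold 16 and 22 CpG dinucleotides.
Strada: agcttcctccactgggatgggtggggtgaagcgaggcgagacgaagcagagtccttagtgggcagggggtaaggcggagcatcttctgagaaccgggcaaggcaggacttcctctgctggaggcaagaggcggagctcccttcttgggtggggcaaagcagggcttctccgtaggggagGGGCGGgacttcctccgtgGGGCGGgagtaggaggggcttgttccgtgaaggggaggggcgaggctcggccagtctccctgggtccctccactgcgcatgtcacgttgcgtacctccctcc
Ddit3: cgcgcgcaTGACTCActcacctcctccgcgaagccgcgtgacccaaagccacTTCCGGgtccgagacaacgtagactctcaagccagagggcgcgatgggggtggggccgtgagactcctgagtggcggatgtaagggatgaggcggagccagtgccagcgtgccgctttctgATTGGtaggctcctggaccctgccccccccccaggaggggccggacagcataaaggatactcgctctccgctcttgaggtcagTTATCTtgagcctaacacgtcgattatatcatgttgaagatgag

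The cKO-only promoters without H3K4me3 were Aars2 (chr17:45506591-45506890, plus strand), the mitochondrial alanyl-tRNA synthetase, and Dact3 (chr7:16875067-16875366, plus strand), an inhibitor of Wnt signalling. They hold 16 and 25 CpG dinucleotides, and Dact3 has 7 matches to GGGCGG.
Aars2: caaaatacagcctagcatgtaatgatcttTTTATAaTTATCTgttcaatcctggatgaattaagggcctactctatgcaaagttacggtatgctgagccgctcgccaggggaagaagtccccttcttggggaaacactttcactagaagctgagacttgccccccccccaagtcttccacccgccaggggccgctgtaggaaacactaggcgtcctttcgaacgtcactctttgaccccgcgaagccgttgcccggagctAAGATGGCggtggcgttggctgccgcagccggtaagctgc
Dact3: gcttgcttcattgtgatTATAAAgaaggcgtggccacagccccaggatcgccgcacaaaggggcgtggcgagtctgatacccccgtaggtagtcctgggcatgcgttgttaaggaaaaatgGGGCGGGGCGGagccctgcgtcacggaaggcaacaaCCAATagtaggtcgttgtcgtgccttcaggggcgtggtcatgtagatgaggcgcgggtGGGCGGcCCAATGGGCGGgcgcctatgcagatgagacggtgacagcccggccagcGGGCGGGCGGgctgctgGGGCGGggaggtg

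Regions found in 1 genotype only were mostly in the cKO list. Of the 16611 regions, 6889 were cKO only (41.5%, 95% interval 40.7 to 42.2, exact binomial), 1203 were fl only (7.24%, 6.85 to 7.65) and 8519 were in both (51.3%). The lists differ in length, so the cKO list was also shortened to the 9774 peaks with the highest −log10 q, the authors' q-value of a peak on a log scale. The 12485 regions then fell into 2760 cKO only (22.1%), 2716 fl only (21.8%) and 7009 in both (56.1%). Near-equal numbers of cKO-only and fl-only regions follow from giving the lists the same number of peaks. The fl list was not shortened, so the added fl-only regions came from shared regions whose cKO peaks were left out. Shortening left out 5648 cKO peaks. The last peak kept and the first left out had the same values (−log10 q 13.8, fold enrichment 9.78), and 29 peaks tied there were taken in file order. With 1 library per genotype no difference between cKO and fl has a replicate check, no test between them was run, and the intervals cover counting error only. The lists carry no read counts, so depth is unknown, and a longer list, a deeper library and more acetylated places cannot be told apart.

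The regions of 1 genotype only differed in where they lay. A region was called promoter when it came within 1 kb of an annotated protein-coding start, and distal otherwise. For the 4205 genes without a start in the promoter table, both annotated ends were used, so some promoter regions lie at a 3′ end. Of the cKO-only regions, 4660 of 6889 were at promoters (67.6%, 66.5 to 68.7), against 91 of 1203 fl-only regions (7.56%, 6.13 to 9.21). Regions in both lists stood between them, with 4248 of 8519 at promoters (49.9%). With lists of equal length the promoter share was 81.7% of cKO-only regions (2255 of 2760), against 16.3% of fl-only regions (442 of 2716). The contrast in place was thus present with and without the difference in list length. Leaving out all regions with a DEK peak gave 68.2% of cKO-only and 8.01% of fl-only regions at promoters.

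**Figure D1:**
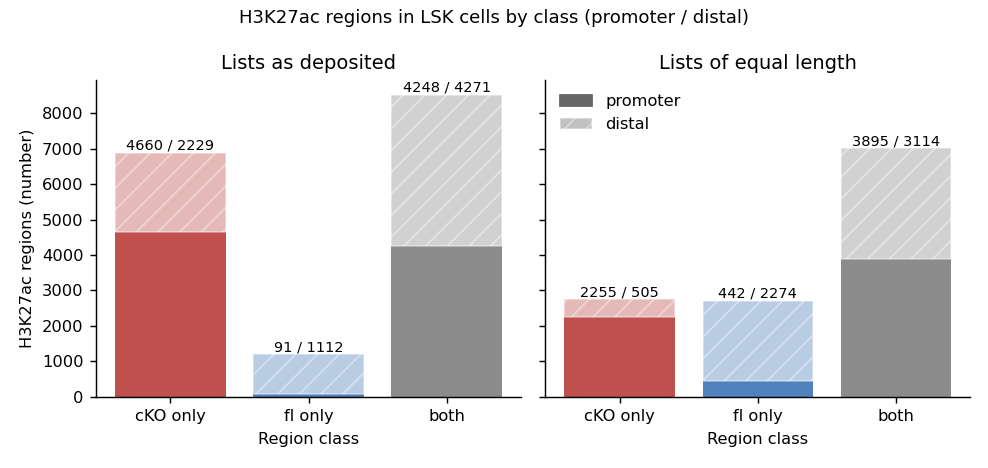
Numbers of H3K27ac regions of each class (vertical axis) for the lists as deposited and at equal length. Solid bars are promoter and hatched bars distal regions, and the numbers above give promoter and distal regions: cKO-only regions are mostly at promoters and fl-only regions mostly distal in both panels.

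The strength of a peak within its own list was related to its place differently in the 2 lists. Among the strongest 1000 peaks by −log10 q, 6.8% of the cKO list and 0.5% of the fl list were at promoters, and 7.4% and 0.5% overlapped an H3K4me3 peak of either genotype. These strongest peaks were distal places that also held DEK peaks more often than other peaks did: 10.8% of the strongest 1000 cKO peaks and 18.7% of the strongest 1000 fl peaks did, against 3.47% of the whole cKO list and 5.6% of the whole fl list. In the cKO list the promoter share was 68.1% in the second decile, 77.5% in the third and 44.9% in the weakest. In the fl list it was 2.87% in the second decile, 24.4% in the third and 67% in the weakest. Promoter peaks of the cKO list had a median fold enrichment over the caller's background of 10.5, against 9.61 for its distal peaks. In the fl list the order was the other way, 7.51 at promoters and 9.55 at distal peaks. Folds and q-values are the authors' own for each library and rank peaks only within a list.

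**Figure D2:**
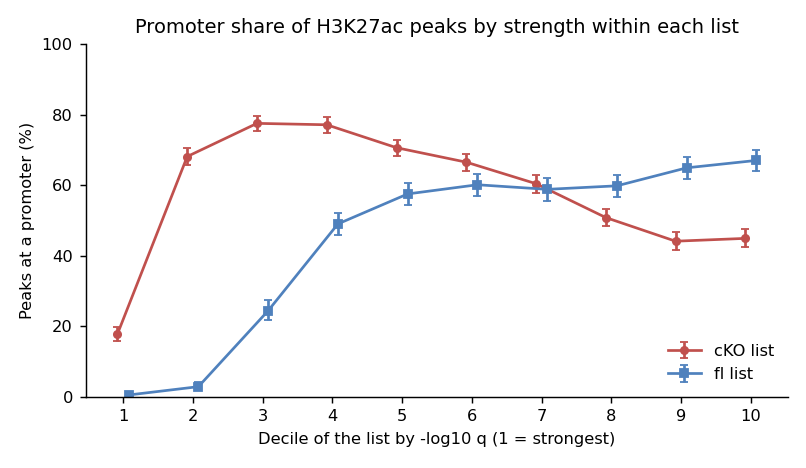
Share of peaks at a promoter (vertical axis, percent, with exact 95% binomial intervals) in each decile of the cKO and fl lists by −log10 q, the strongest decile at the left. Promoter peaks are most frequent in deciles 2 to 6 of the cKO list and in the weakest deciles of the fl list, and the strongest decile of either list is mostly distal.

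Among regions in both lists the peaks also had unequal widths. At shared promoters the cKO peaks covered a median of 604 bp and the fl peaks 387 bp, and the cKO peak was the wider in 94.6% of 4248 regions. At shared distal regions the medians were 552 bp in cKO and 515 bp in fl, with the cKO peak wider in 70.8% of 4271. The deposited folds stood side by side at 12.2 in cKO and 7.58 in fl at promoters, and at 11.4 in cKO and 10.5 in fl at distal regions. In all, the cKO list covered 8.83 Mb with peaks of a mean of 572 bp, against 4.74 Mb and 485 bp for the fl list.

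Seen by gene, a promoter peak was present at 9414 of 20661 protein-coding genes in the cKO list (45.6%) and at 4896 in the fl list (23.7%). Of all genes 4595 were cKO only (22.2%), 77 were fl only (0.373%) and 4819 had a peak in both. With lists of equal length 2368 genes were cKO only (11.5%), 430 fl only (2.08%) and 4466 in both. Of the 4595 cKO-only genes, 2227 lost their peak when the cKO list was shortened. The 430 were made of the same 77 genes and 353 genes that had been in both. The 4595 genes were served by 4276 peaks, because 632 of them share a peak with another gene, as divergent gene pairs do.

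Among the 12 strongest cKO-only promoters, Fnta, a subunit of protein farnesyltransferase, had the highest −log10 q, 56.7 with a fold of 17.3, at chr8:26015132-26015768. Sec22c had a fold of 18.8 in a peak whose summit was 85 bp downstream of a start. Egln2 had a fold of 14.6 with its summit 200 bp downstream. Kat14 and Pet117, a mitochondrial assembly factor, share 1 peak with a fold of 18 that lies over both starts (0 and 49 bp from its summit). Poldip3 had a fold of 16.7, Ptp4a2, a tyrosine phosphatase, 14.1, Mmaa, of vitamin B12 metabolism, 15.8, Pank2, which makes coenzyme A, 15.9, and Zfand4, a zinc finger gene, 18.3. All 10 of these genes carried H3K4me3 peaks in both genotypes. Staying cKO only with lists of equal length was a condition for choosing the 12, and so is not a result. Entpd4 (fold 17.3) and its near-identical neighbour Entpd4b (fold 16.9), ectonucleotidases, had no H3K4me3 peak, and reads of such copies may not be told apart. None of these 12 genes held a DEK peak.

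The fl-only promoters were few and weaker within their list. Strada led them with a fold of 12.7 and −log10 q of 19.8, at chr11:106193430-106193803, 60 bp downstream of its start. Stra8, a meiosis gene, had a fold of 11.6, but its summit lay 797 bp from the start, it had no H3K4me3 peak, and it held a DEK peak. Ddit3 had a fold of 10.3 with a summit upstream of its start (position -293 bp), and Akap8l, a nuclear anchoring protein, 10.1 at 76 bp. Efcab7 and Itgb3bp share a peak (fold 9.85), as do Ap4m1 and Mcm7 (9.02), and Mcm7 codes for a subunit of the replicative helicase. Klhl3, a ubiquitin ligase adaptor, had a fold of 9.34, Cox7a2l, of the respiratory chain, 8.63, Rspo1, an activator of Wnt signalling, 8.44, and Amigo2, an adhesion protein, 8.26. Of these 12 genes 10 had H3K4me3 in both genotypes. The strongest promoter peaks in both lists included Zfp866 (fold 18.3 in cKO and 16 in fl), Atg16l2, an autophagy gene (16.3 and 14.2), and Pccb, of propionate metabolism (17.3 and 14.1). Fut8, a fucosyltransferase, was the strongest of all (21.1 and 18.5), with summits 818 bp in cKO and 865 bp in fl from the start.

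Dek itself had a promoter peak in the cKO list only (fold 10.6, −log10 q 20.4), with its summit 7 bp from the start and H3K4me3 in both genotypes (folds 12.8 in cKO and 12.9 in fl). A peak at the start does not show whether the floxed part of the gene was removed, so the genotype labels are not checked by these lists. Of 15 LSK markers, 4 had a promoter peak in the cKO list (26.7%) and 2 in the fl list (13.3%). Both shares were below those of all genes (45.6% and 23.7%), so these peaks do not check the cell type. Kit, the stem cell factor receptor, had a fold of 9.73 in cKO and no peak in fl, and Cd34 8.43 in cKO and none in fl. Flt3, a receptor of multipotent progenitors, had folds of 12.1 in cKO and 7.91 in fl, and Il6st, the shared interleukin 6 receptor chain, 14.1 and 6.76. Ly6a, which codes for Sca-1, had no promoter peak in either list. Of 26 markers of mature lineages 2 had a peak in the cKO list (7.69%) and 1 in the fl list (3.85%), also below all genes. These were Cd4 (10.3 in cKO, none in fl) and Tfrc, the transferrin receptor (12.1 in cKO, 8.27 in fl). No peak was listed at the promoters of Cd3e, Itgam, Ly6g or Mpo.

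H3K4me3 divided the genes with a peak in 1 list only. Of the 4595 cKO-only genes, 3004 (65.4%) had an H3K4me3 promoter peak in both genotypes and 1199 (26.1%) in neither. Over all 20661 genes, 9138 (44.2%) had such a peak in both genotypes and 10611 in neither. Of the 77 fl-only genes, 49 (63.6%) had it in both and 22 (28.6%) in neither, whereas 94.4% of the genes with H3K27ac in both lists had H3K4me3 in both. Few of the genes without H3K4me3 were cKO only at equal list length, 187 of 1199 (15.6%), against 2034 of 3004 (67.7%) with it. The 12 strongest of this kind, a set chosen after its values were seen, included Rmi2, of the dissolvasome (fold 16.5), Aars2 (17.2), Nudt14, a nucleotide sugar hydrolase (16.3), Dact3 (14.3), Tpst1, a tyrosine sulphotransferase (14.3), and the histone genes H2ac24, H4bc24 and H4c18, which share a peak (10.9). Of the 9138 genes with H3K4me3 in both genotypes, 32.9% were cKO only for H3K27ac, 0.536% fl only and 49.8% in both.

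CpG content of the promoter separated genes with a peak from those without, and less so the classes from each other. The observed over expected CpG ratio over the 300 bp of the promoter table, available for 16456 genes, had a median of 0.804 in cKO-only genes, 0.666 in fl-only genes, 0.825 in genes with both and 0.26 in genes with neither. It was 0.719 in cKO-only genes without H3K4me3. Among genes without H3K4me3 in either genotype, the share with an H3K27ac peak in the cKO list was 0.704% at a ratio under 0.1 and 58.9% at ratios of 0.8 to 0.9. In the fl list the share was 0.235% and 8.86% in the same bins. Among genes with H3K4me3 in both, the same bins had 56% and 87.1% in the cKO list, and 34% and 55.7% in the fl list. The lists share their promoters and differ in length, so the curves are a description of 1 library each.

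**Figure D3:**
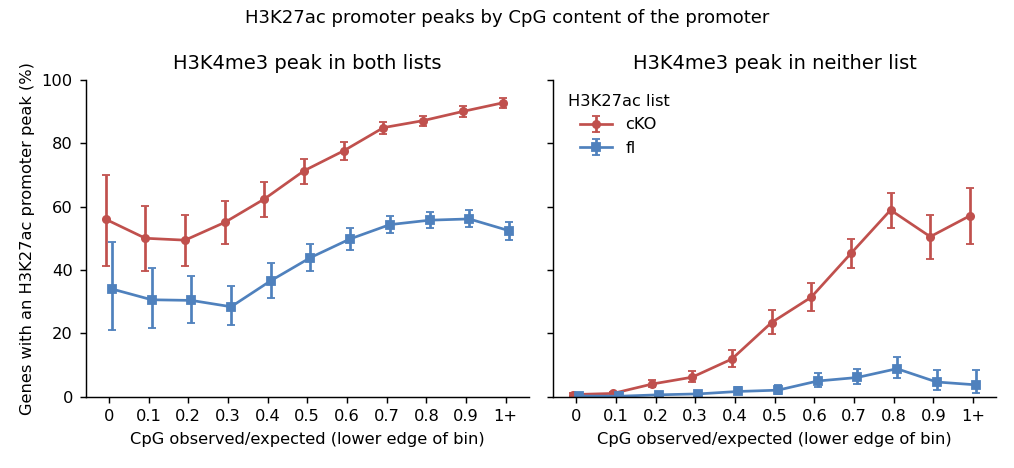
Share of genes with an H3K27ac promoter peak (vertical axis, percent, with exact 95% binomial intervals) by CpG ratio of the promoter, for genes with an H3K4me3 peak in both genotypes (left) and in neither (right). Without H3K4me3 the share climbs with CpG content to above 50% in the cKO list and stays under 10% in the fl list.

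The summits lay just downstream of the start in every class. Among peaks with a summit within 1 kb of a start in the promoter table, the median position was 112 bp downstream for 3681 peaks in cKO-only regions and 133.5 bp for 80 peaks in fl-only regions. In shared regions it was 104 bp for 3562 cKO peaks and 97 bp for 3575 fl peaks. Downstream summits made up 73.3% in cKO-only regions, 80% in fl-only regions, and 75.5% (cKO) and 72.8% (fl) in shared regions. Of the promoter motifs, GGGCGG was present in 71.3% of cKO-only promoters, 46.4% of fl-only promoters, 75% of promoters in both and 24.6% of promoters with neither. At equal length it was present in 72.3% of cKO-only and 69.3% of fl-only promoters. CCAAT was present in 34.1% of cKO-only promoters, 52.2% of fl-only promoters, 39.5% of those in both and 40.6% of those with neither. CCGGAA was present in 23.9% of cKO-only promoters, 29% of fl-only promoters, 33.2% of those in both and 11.3% of those with neither. TGTGGT was present in 9.63%, 10.1% and 11.5% of these classes in the same order, against 18.7% of promoters with neither, and AGATAA in 4.94%, 10.1% and 4.64%, against 14.3%. The fl-only class has 69 promoters, so its shares are coarse.

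Some genes had separate annotated starts that differed in peak class, which does not measure use of the starts. Of 1220 genes whose annotated starts had separate windows, 51 had 1 start with a peak in both lists and another with a cKO-only peak. For an fl-only peak the count was 0. All genes had the same lean, with 4595 cKO only and 77 fl only, and starts were not counted at equal length. Among the 51 were Rara, the retinoic acid receptor alpha, Zeb2 and Foxp1, transcription factors of blood lineages, and Sin3a, a corepressor scaffold. In 4 genes, Atxn7l1, Lzts2, Prickle2 and Slc24a3, 1 start was cKO only and another fl only. These genes were named after their values were seen.

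The transcription factors of stem cell identity had promoter peaks mostly in the cKO list. Of 30 such genes 14 were cKO only, 0 fl only and 8 in both, against the 22.2% cKO only of all genes. At equal length 4 were cKO only (13.3%, near the 11.5% of all genes): Hlf, a factor enriched in stem cells (fold 13.1 in cKO), Cbfb, the partner of RUNX1 (8.25), Mecom, needed for stem cell maintenance (9.82), and Tal1, a bHLH master regulator (9.65). Meis1, Myb, Gfi1, Erg and Gata2 were cKO only as deposited, with −log10 q of 13.4, 12.1, 10.5, 9.88 and 8.05, and had no peak left at equal length. Runx1 had folds of 9.73 in cKO and 8.11 in fl, Etv6 9.39 and 7.82, Msi2, an RNA-binding protein, 10.6 and 8.41, and Hhex 7.84 and 5.97. Mycn (8.5 in cKO and 6.45 in fl) was the 1 gene of the list that was fl only at equal length. Lmo2, Hoxa9, Lyl1 and Fli1 had no promoter peak in either list.

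Quiescence and immediate early genes were covered at 26 of 29 promoters in the cKO list and 12 in the fl list, with 14 cKO only (48.3%) and 0 fl only. Over all genes 45.6% had a peak in the cKO list and 23.7% in the fl list, and 22.2% were cKO only. At equal length 8 of the 29 were cKO only (27.6%, against 11.5% of all genes) and 1 fl only. The cKO-only genes included Egr1 (fold 9.86), Egr2 (10.1), Ier2 (13.5) and Nr4a2 (11.9), early-response transcription regulators, Tob1 (10.9), an antiproliferative gene, and Foxo1 (6.79). Those in both included Btg2, an antiproliferative gene (15.3 in cKO and 9.26 in fl), Nr4a1 (14.9 and 8.43), Cdkn1b, the inhibitor p27 (11 and 8.54), and Cdkn2c, the inhibitor p18 (10.4 and 8.28). Cdkn1c, the inhibitor p57 that marks quiescent stem cells, had a weak cKO-only peak (fold 6.95) and no H3K4me3. Of 46 genes of the cell cycle and replication, 13 were cKO only (28.3%; 7 at equal length), among them E2f3 (8.96), Ccnb1 (12), Ccne1 (9.05) and Aurkb (11.8), 17 were in both, and 1, Mcm7, was fl only.

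Signalling lists had peaks at most of their promoters in the cKO list. Of 34 genes of the TGF-beta, Wnt and Notch pathways, 33 had a peak there and 13 in the fl list, so 20 were cKO only, the highest share of the 24 lists (58.8%). They included the effectors Smad4 (fold 13.4) and Smad5 (14.6), the receptor Bmpr2 (12.2), the Notch coactivator Maml1 (17.1), its DNA-binding partner Rbpj (9.13) and the target Hes1 (8.2). With equal length 10 were cKO only (29.4%, against 11.5% of all genes) and 13 in both. Of 32 genes of the PI3K, AKT and mTOR pathway 13 were cKO only (40.6%), with the brake Tsc1 (12.7), the kinase Mtor (10.9) and its activator Rheb (10.9), and 16 were in both, with Pdpk1 (13.9 in cKO and 8.27 in fl) and Rps6kb1 (14 and 10.6). Akt1 had its cKO-only summit 514 bp downstream of the start, and Akt2 peaks of 14.8 in cKO and 7.74 in fl. Strada was the 1 fl-only gene. The next 3 lists had cKO-only shares near the 22.2% of all genes. At equal length the shares were 13.9%, 11.8% and 18.5% in the order given here, against 11.5% of all genes. These lists held more genes with H3K4me3 in both genotypes, 91.7%, 76.5% and 96.3%, against 44.2% of all genes. Of 36 genes of JAK-STAT signalling 7 were cKO only (19.4%), with Socs1, a feedback inhibitor (10.4), and Stat5b (12.6), and 17 in both, with Ifngr1 (19.2 in cKO and 11.9 in fl), Stat3 (17.3 and 9.34) and Jak1 (13.1 and 8.82). The NF-kB and interferon list had 8 of 34 cKO only (23.5%; 4 at equal length), with Relb (14.5) and Ikbkb (14), and 11 in both. The p53 and apoptosis list had 6 of 27 cKO only (22.2%), with Apaf1 (11.6) and Bcl2 (13), 1 fl only (Ddit3) and 16 in both, with Sesn1 (16.2 in cKO and 12.9 in fl) and Mdm2 (10.5 and 7.28). In the glycolysis and hypoxia list 12 of 29 were cKO only (41.4%), with Egln2, Hif1a (10.5) and Pdk2, a kinase that holds back pyruvate dehydrogenase (13.2), and 12 in both.

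Genes that write, read and remove chromatin marks were widely covered. Of 37 genes of the acetylation machinery 16 were cKO only (43.2%), 0 fl only and 19 in both. At equal length 12 were cKO only (32.4%, against 11.5% of all genes). The acetyltransferases Ep300 (7.92 in cKO and 7.13 in fl), Crebbp (14.7 and 8.27) and Kat7 (18.8 and 8.26) and the deacetylases Hdac1 (12.8 and 9.15), Hdac2 (8.6 and 5.97) and Hdac3 (10.7 and 6.87) had peaks in both lists. Sirt7 (fold 13.7), the corepressor Ncor1 (13.6), Hdac5 (11), Sirt1 (10.5) and Brd3 (10.3) had peaks in the cKO list only. Histone and DNA methylation genes had the second highest cKO-only share of the lists, 23 of 45 (51.1%, against 22.2% of all genes). At equal length 19 of 45 were cKO only, the highest share of the lists there (42.2%, against 11.5% of all genes). The 23 included Cbx7 (13.6), Eed (13.8) and Rnf2 (11.3) of the Polycomb complexes, the methyltransferases Dot1l (13.3) and Kmt2a (12.7), and Dnmt3a (8.8) and Tet2 (10.5), of DNA methylation and its removal. Kdm4a, a demethylase, was fl only (5.64), and Ezh2 (7.75 in cKO and 7.76 in fl) and Suz12 (12.9 and 7) were in both. Of 44 genes of remodelling, cohesin and histone chaperones 14 were cKO only (31.8%), with Set (10.2), Ctcf (8.49) and Dek, and 22 in both, with Smarca4 (14.3 in cKO and 5.84 in fl), Daxx (15 and 11.5) and Ssrp1 (17.2 and 9.34). DNA repair genes had 12 of 37 cKO only (32.4%), with Xpa (14.9) and Atr (14.8), splicing and translation genes 9 of 41 (22%) with 30 in both, and autophagy and lysosome genes 9 of 33 (27.3%) with 19 in both, against 22.2% cKO only of all genes.

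Lineage genes had cKO-only shares near or below the 22.2% of all genes. The myeloid list had 5 of 26 cKO only (Klf4, Cebpa, Cebpb, Gfi1 and Cebpe, folds 6.48 to 8.32) and 2 in both (Irf8 and Cebpd), a cKO-only share of 19.2%. At equal length 1 of its genes was cKO only and 1 fl only. The lymphoid list had 7 of 30 cKO only (23.3%; 4 at equal length), with Satb1 (11.9), Ikzf1 (10.4) and Tcf3 (10.3), 1 fl only, Lck (5.51), and 3 in both. The erythroid and megakaryocyte list had 3 of 29 cKO only (10.3%), Zfpm1 (11), Tal1 (9.65) and Ank1 (8.08), and 4 in both, with Klf1 (10.7 in cKO and 7.82 in fl) and Itgb3 (15 and 7.08). The list of niche contact and homing had 5 of 26 cKO only (19.2%; 2 at equal length) and 9 in both, with Cxcr4 (11.4 in cKO and 7.82 in fl) and Itga4 (11.4 and 5.78).

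Markers of other cell types were set beside these counts. Of 20 endothelial genes 7 had a promoter peak in the cKO list (Egfl7, Kdr, Flt4, Flt1, Sox17, Erg and Sox18, folds 6.48 to 10.4) and 0 in the fl list. These shares of 35% and 0% were below the 45.6% and 23.7% of all genes. All 7 were thus cKO only, and that share of 35% was above the 22.2% of all genes. Cdh5, Pecam1, Tie1, Emcn and Cldn5, defining genes of endothelium, had none in either list. Of 20 stromal genes 4 were cKO only (Alpl, Sp7, Cxcl12 and Nes, folds 5.5 to 10.6) with 0 in the fl list, and Col1a1, Lepr and Pdgfra had no peak. Of 24 genes of other tissues 5 were cKO only (Neurod2, Lgr5, Cdx2, Neurog2 and Actn2, folds 4.95 to 7.89), and 1, Sftpc, was in both. The cKO-only shares of the stromal (20%) and other-tissue (20.8%) lists were near the 22.2% of all genes. All 9 of these stromal and other-tissue cKO-only genes lacked H3K4me3 in both genotypes. At equal length the cKO-only counts were 2 endothelial (10%), 1 stromal (5%) and 0 other-tissue genes, against 11.5% of all genes. The part of other cells or of background in these peaks was not tested.

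**Figure D4:**
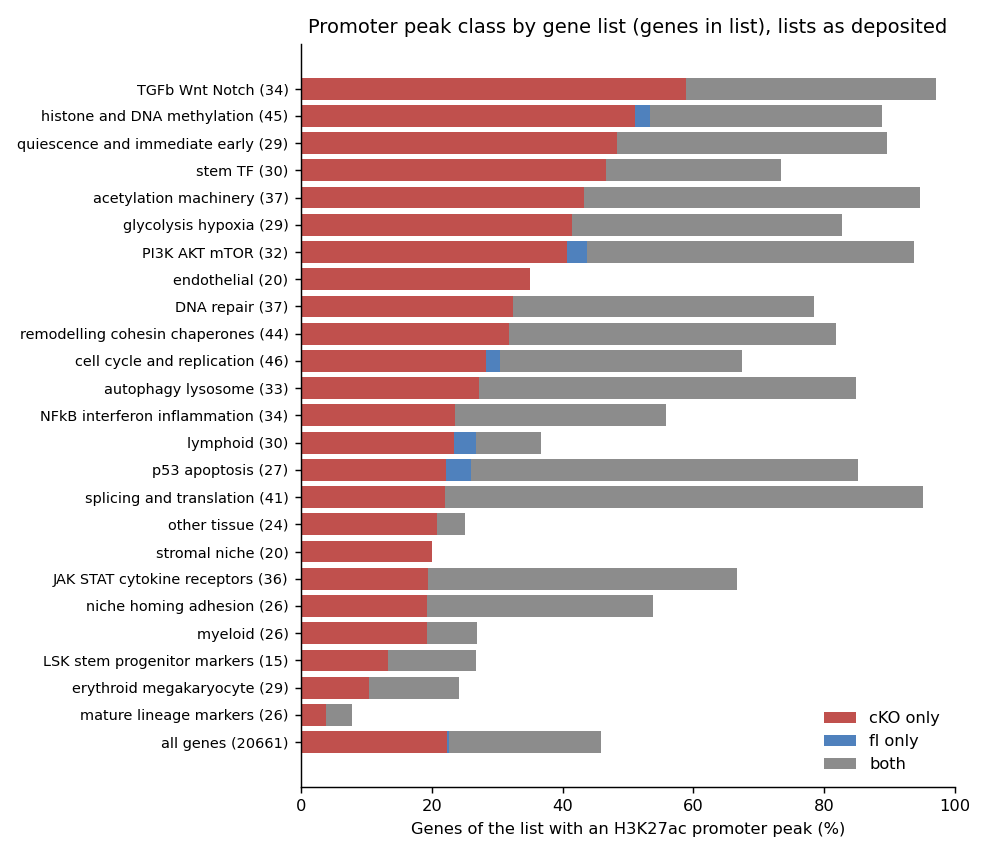
Share of the genes of each list (horizontal axis, percent, number of genes in parentheses) with an H3K27ac promoter peak in the cKO list only, in the fl list only and in both. The TGF-beta, Wnt and Notch list and the histone and DNA methylation list have the highest cKO-only shares, and in each of the 24 the cKO-only genes outnumber the fl-only genes, as they do over all genes.

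Genes with a peak in cKO alone outnumbered those with a peak in fl alone in each of the 24 lists as deposited and in 22 at equal length, with equal numbers in 2. Since all genes have the same lean, it is not particular to any list. Families defined by gene symbol showed the range, beside the 22.2% cKO only of all genes as deposited. Among families of at least 15 genes, the cKO-only share was highest in the forkhead FOX factors (20 of 41, 48.8%, with Foxm1 at a fold of 12.2 and Foxj3 at 10.2), the lysine demethylases and methyltransferases (16 of 33, 48.5%), the E2 ubiquitin-conjugating enzymes (16 of 34, 47.1%, with Ube2k at 13.4), the cyclins (11 of 24, 45.8%, with Ccnk at 11.3), and the cyclin-dependent kinases with their inhibitors (10 of 24) and the MAP kinase cascade (20 of 48), both at 41.7%, with Cdk8 at 13.4. The order was another at equal length, with 22%, 39.4%, 35.3%, 37.5%, 20.8% and 27.1% for these families as listed, against 11.5% of all genes. Of the 20 cKO-only FOX genes 8 had no H3K4me3 peak. As deposited, the cKO-only share was lowest in receptor and tissue-restricted families: 0 of 72 defensins, 0 of 352 vomeronasal receptors, 1 of 1104 olfactory receptors (0.0906%), 1 of 67 protocadherins, 1 of 49 keratins and 4 of 98 cytochrome P450 genes.

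Other families are set beside all genes, of which 22.2% were cKO only as deposited and 11.5% at equal length. Of 82 cytosolic ribosomal protein genes 22 were cKO only (26.8%, and 20.7% at equal length), 0 fl only and 34 in both. Rps21 (fold 15.1) and Rpl27 (14.5) were cKO only, and Rpl22 (15.9 in cKO and 10.2 in fl) was in both. Of 31 splicing proteins of the SRSF and HNRNP families 24 were in both and 5 cKO only (16.1%). Among 78 histone genes 41 were in both and 19 cKO only (24.4%). Of the 19, 12 had no H3K4me3 peak, and 22 of the 78 had H3K4me3 in both genotypes. These genes lie in clusters of near-identical copies, so their reads may be split or shared. Potassium channels had 29 of 92 cKO only (31.5%), of which 21 lacked H3K4me3, and 6 at equal length (6.52%). HOX genes had 5 of 39 cKO only (12.8%), with the highest fold at Hoxb4 (8.04). The LHX, PAX, NKX and POU homeobox genes had 11 of 45 (24.4%), and both families had 0 at equal length. The cytochrome c oxidase subunits, with 2 cKO only and 1 fl only of 26 as deposited, had 1 cKO only and 2 fl only at equal length. IRF factors (of 9 genes) and MCM and ORC genes (of 15) also had 1 cKO-only and 2 fl-only genes at equal length, and collagens (of 42) had 0 and 2.

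Distal regions numbered 2229 cKO only, 1112 fl only and 4271 in both. At equal length fl-only outnumbered cKO-only distal regions, with 505 cKO only, 2274 fl only and 3114 in both. The shortened cKO list reached down to −log10 q 13.8, and the unshortened fl list to 2.4. The fl-only distal regions beyond the 1112 thus came from shared regions whose cKO peaks were left out. The cKO-only ones lay closer to genes: their median distance to the nearest annotated start was 29.7 kb, against 90.9 kb for fl-only regions and 99.9 kb for regions in both, while positions spaced every 10 kb along the chromosomes had a median of 65 kb. At equal length the medians were 24.5, 92.2 and 103 kb in the same order. Of cKO-only distal regions 47.6% lay inside a gene, against 30.3% of fl-only regions, 30.3% of those in both and 40% of the evenly spaced positions. H3K4me3 of either genotype overlapped 16.3% of cKO-only, 0.809% of fl-only and 7.94% of shared distal regions, and at equal length 31.7%, 2.37% and 9.44% in that order. DEK peaks overlapped 2.6% of cKO-only, 7.01% of fl-only and 10.8% of shared distal regions, and at equal length 1.58%, 9.98% and 10.1%. H3K9ac peaks overlapped 2.15%, 2.52% and 3.77% in that order, and at equal length 2.18%, 4% and 3.15%. DEK and H3K9ac were measured in HSC and not in the whole LSK gate.

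**Figure D5:**
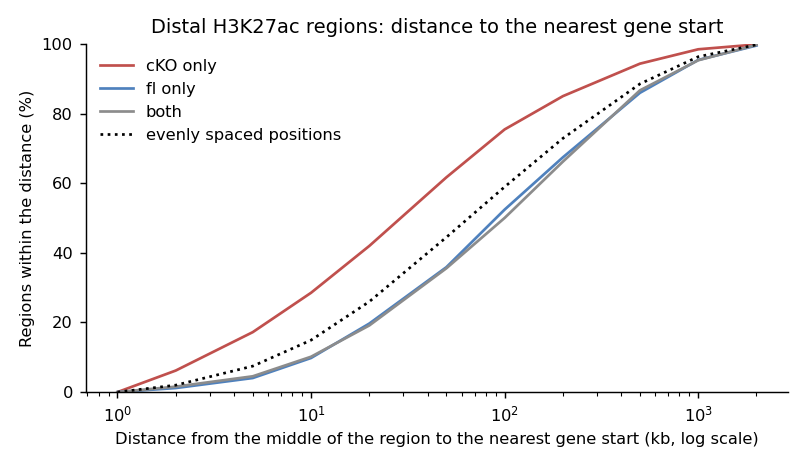
Cumulative share of distal regions (vertical axis, percent) within a distance of the nearest annotated gene start (horizontal axis, kb, log scale) for the 3 classes and for positions spaced every 10 kb. The cKO-only curve lies above the evenly spaced positions, whereas the fl-only and shared curves nearly coincide and lie below them from 2 to 2000 kb.

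The strongest cKO-only distal region, chr8:123623585-123624187 (fold 7.23, −log10 q 57.9), lay in a span of 5S rRNA genes described below. No annotated 5S gene was within 1 kb of it. Outside that span, the strongest included chr7:80026800-80027402 inside Zfp710 (fold 13.7), chr4:8647129-8647661 with Rab2a as its nearest gene at 39.7 kb (17.4), chr11:87986962-87987760 inside Dynll2 (13), chr17:30575850-30576576 inside Btbd9 (14.8) and chr4:136147784-136148381, 4.26 kb from Id3, an inhibitor of bHLH factors (12.8). A region 2.12 kb from Glt6d1, chr2:25817638-25818280, also had a fold of 14.8. Over the 8 strongest cKO-only distal regions, which include 2 in that span, 4 held H3K4me3 peaks in both genotypes (those of Zfp710, Rab2a, Dynll2 and Btbd9) and 4 in neither. None of the 8 strongest fl-only regions held H3K4me3, and 7 of the 8 lay outside genes, among them chr15:52648853-52649345, 63.3 kb from Med30 (fold 15.4), chr2:21300088-21300632, 67.2 kb from Gpr158 (14.5), chr12:44231576-44231990, 21.7 kb from Dnajb9 (14.7), and chr9:74670479-74670834, 191 kb from Onecut1 (14.9). The strongest shared region, chr2:98666420-98667372, had −log10 q values of 244 in cKO and 161 in fl, is 2349 kb from the nearest start, and also held DEK and H3K9ac peaks. Another, chr9:35305194-35305651, had folds of 26.4 in cKO and 25 in fl and held DEK and H3K9ac peaks as well. Places that give peaks with several antibodies are known in short-read data where repeated sequence piles up reads. Whether these are such places was not tested, as no genome sequence or list of such places was used here. The genes with the most distal regions were long: Lrp1b (2058 kb) held 8 in the cKO list and 7 in the fl list, Gpc5 (1433 kb) 7 and 8, Magi2 (1485 kb) 7 and 7, and Pcdh15 (1554 kb) 8 and 6.

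Non-coding genes near distal regions included a large group on chromosome 8. There, chr8:123538607-123624187, a span of 85.6 kb between Gas8 and Rhou, held 39 peaks of the cKO list and 2 of the fl list, so that 37 of the 39 regions were cKO only. The span holds 48 annotated 5S rRNA genes, which RNA polymerase III transcribes into a part of the large ribosomal subunit, and 36 of them had a cKO peak over them or within 1 kb, against 2 with an fl peak. The folds were low for their significance, 2.7 to 7.23 with a median of 3.79 in the cKO list (−log10 q 13.1 to 57.9), and 3.22 and 4.15 in the fl list. At equal length 38 regions remained, 36 cKO only and 2 in both. No peak of H3K4me3, H3K9ac or DEK lay in the span. The 5S copies are near-identical, how reads that fit several places were assigned is not given in the sources used here, and the 39 peaks cannot be counted as independent places.

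Genes of tRNAs are also read by RNA polymerase III. Of 391 such genes, 23 had a cKO-only distal region within 1 kb (5.88%), 16 a region in both and 2 an fl-only region. Many lie in repeated clusters, as at chr1:171080031-171081252 (fold 9.63, cKO only), which lies over or within 1 kb of 5 tRNA genes, while its neighbours chr1:171064345-171065995 (8.42 in cKO and 5.71 in fl) and chr1:171072417-171073644 (9.72 and 5.52) were in both lists. Small nuclear RNA genes had 13 cKO only (1.4%), among them Rn7sk, which holds P-TEFb inactive (fold 8.8), 1 fl only and 4 in both of 931. Of 1136 microRNA genes 17 had a cKO-only region (1.5%), 0 an fl-only region and 11 a region in both. Long non-coding RNA genes had a cKO-only region at 2.64%, an fl-only region at 0.653% and a region in both at 3.01%. Distal regions in all leaned the same way, with 2229 cKO only and 1112 fl only. Counts by type of RNA gene were not made at equal length. Mirlet7i, of the let-7 family, had a cKO-only region with a fold of 12.3 beside one in both lists (6.99 in cKO and 5.64 in fl), Mir212 and Mir132 share a cKO-only region (5.47), and Mir148a (11.5 in cKO and 7.49 in fl) and Mir210, a hypoxia-responsive microRNA (13.3 and 7.51), had regions in both.

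Distal regions near the genes of the lists were counted within 50 kb of each gene. A distal region lay that near to 20 of 30 stem cell factor genes (66.7%), 21 of 29 quiescence and immediate early genes (72.4%) and 19 of 29 erythroid and megakaryocyte genes (65.5%), against 34% of all genes. Near 16 of the 20 stem cell factor genes such a region was cKO only, near 2 fl only, and near 6 in both. Of the 7021 genes in all with such a region, it was cKO only near 3591, fl only near 1037 and in both near 3543. Mecom had a region in both lists inside the gene at chr3:30029953-30031431 (9.19 in cKO and 7.72 in fl) and a cKO-only region at chr3:30514997-30515299 (7.33). Lmo2, without a promoter peak, had 2 regions in both lists, with folds of 9.38 in cKO and 6.33 in fl at chr2:103969902-103970795, and of 11.9 and 7.73 at chr2:104015072-104016012. Tal1 had cKO-only regions with folds of 11.4 and 8.43, Gfi1 one of 12.1, and Fli1 a region in both (10.4 in cKO and 6.87 in fl) and a cKO-only one (7.02). Erg had a region in both lists inside the gene whose fold was 5.85 in cKO and 7.79 in fl, and Elf1 and Msi2 had fl-only regions (9.02 and 7.08). Gp9, a platelet gene, had a region in both with folds of 7.86 in cKO and 14 in fl. Tek, the receptor whose promoter drives the Cre, had 5 regions in both lists and 1 fl-only region within 50 kb, and no promoter peak. These counts are a description, since neighbouring genes share regions.

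Distal regions inside genes were also counted by the class of the promoter. Inside genes with a cKO-only promoter there were 0.99 cKO-only, 0.33 fl-only and 1.1 shared distal regions per Mb, inside genes with a promoter peak in both 0.7, 0.29 and 0.85 per Mb in the same order, and inside genes with neither 1.3, 0.37 and 1.66 per Mb. By chromosome the cKO-only share of regions ran from 35.5% on chromosome 16 to 46.4% on chromosome 8, which holds the 5S genes, and the fl-only share from 5.22% on chromosome 9 to 9.86% on chromosome 18. The cKO-only share was above the fl-only share on all 19 chromosomes as deposited, and at equal length on 11, with the reverse on 8. These 8 were chromosomes 1 (18.6% cKO only and 23.7% fl only), 3 (17.6% and 26.9%), 14 (19.5% and 28.5%), 16 (17.7% and 25.4%), 6, 12, 13 and 18.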

How the data were processed

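The deposited CUT&Tag peak lists, 1 per library, were the starting point. MACS2, Bowtie2, Picard and the build mm10 are named per the submitters' processing notes. Versions, order of steps, control and threshold are not given there. Each peak's deposited fold is a ratio of its summit to the caller's background, and each deposited −log10 column holds the authors' p-value or q-value. These values ranked or filtered peaks within a list. The lists give no read counts, so depth and the precision it allows are unknown. The lowest −log10 p was 5.08 in the cKO list and 5.01 in the fl list, and the lowest −log10 q was 2.66 in cKO and 2.4 in fl.

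Peaks on chromosomes 1 to 19 with an overlap of 1 bp or more formed a region. Genes were the 20661 protein-coding genes of NCBI RefSeq (GRCm38.p6). A promoter window reached 1 kb from each start in the promoter table (16456 genes) or, for the other 4205 genes, from both annotated ends, so that some windows lie at a 3′ end. Of the DEK list, 9 irregular lines were left out. Shares carry exact 95% (Clopper-Pearson) intervals for counting error only. Joining was tested on simulated lists. The members, gene lists, families and motifs were chosen with earlier results of these data known. Named genes were the 12 with the highest −log10 q in each 1-genotype class that kept their class at equal length (for both, the 10 highest by the fl list), the strongest 8 distal regions per class, and up to 5 genes per list in cKO only and in fl only. Other examples were picked for their known roles after their values were seen. Some genes are not reported here. Alternatives were equal list length, −log10 q of at least 5 or 10, a larger overlap, a window of 0.5 kb, summits, X and Y, either H3K4me3 list, and places with DEK peaks left out. The software was Python 3.11.15 with scipy 1.17.1, numpy 2.4.6, pandas 2.3.3 and, for plots, matplotlib 3.10.9.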

Additional observations from a re-analysis of the deposited data

How the results depend on the processing

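With 1 library per genotype no replicate could be left out, and depth is unknown. At equal list length there were 2760 cKO-only and 2716 fl-only regions, 81.7% and 16.3% of them at promoters, and 2368 cKO-only and 430 fl-only promoter genes. Keeping peaks with −log10 q of at least 10 gave 772 fl-only regions, 20 fl-only promoter genes, and promoter shares of 77.4% for cKO-only and 2.59% for fl-only regions. Asking for an overlap of 0.5 of the shorter peak gave a promoter share of 9.28% for fl-only regions. For cKO-only regions that share was 63.5% with windows of 0.5 kb, 66.0% with summits, and 54.5% with only the genes that have a start in the promoter table, an alternative chosen after seeing the data. With the cKO H3K4me3 list 49.1% of cKO-only regions held an H3K4me3 peak, against 50.9% with the fl list. Narrower windows, summits and fewer genes can by definition only lower the promoter share of cKO-only regions, which was 67.6% in the main setting. The cause of the other shifts was not tested. In each of these alternatives the promoter share of cKO-only regions was above that of fl-only regions. The larger overlap was not run for genes, since their class uses no overlap between the lists. Of 81 gene lists and families with a peak, the cKO-only count moved by over 1.5 times in 47 at equal length, all downward, and the fl-only count in 43, all upward. With −log10 q of at least 10 the cKO-only count moved in 52, in 41 of them upward. No paired analysis was possible because each genotype has 1 library.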
